A study of Mus musculus with 6 samples.

Results

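Aminoacyl-tRNA synthetases were examined by gene, in the mouse neuroblastoma line N2A, treated either with empty vector (3 arrays) or with a short hairpin that targets PTB, the polypyrimidine tract binding protein (3 arrays). The genes were taken by symbol: an amino acid's letter followed by ars, with or without a final 1 or 2, plus Farsa, Farsb and Eprs. This gave 32 genes on 33 transcript clusters, out of 14807 genes with a symbol of their own, and the brighter cluster stood for Sars, which had a pair. Of the 32, 15 encode cytosolic enzymes, 15 encode mitochondrial enzymes, and Gars and Kars encode enzymes used in both compartments. Aars shared its cluster with another symbol and was not analysed, and Cars2, Dars and Eprs were not analysed here. Both groups were grown in the same medium, and the control vector carried no hairpin, so loss of PTB and the presence of a hairpin cannot be told apart. The titles call the replicates biological without saying whether they came from separate cultures, so p-values measure the spread between these arrays.

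Aminoacyl-tRNA synthetases join each amino acid to its matching tRNA, the step at which the genetic code is read into protein. Cytosolic enzymes charge the tRNAs used by cytoplasmic ribosomes, while a separate set of nuclear genes, mostly marked by a final 2, serves the ribosomes inside mitochondria. Several cytosolic enzymes are held with the scaffold proteins AIMP1, AIMP2 and AIMP3 in a multisynthetase complex. In many cell types the transcription factor ATF4 raises a large share of the cytosolic synthetase genes when amino acids are short. PTB, encoded by Ptbp1, binds pyrimidine-rich RNA and is known mainly as a repressor of exons.

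RNA was measured on Affymetrix mouse exon arrays as 17213 gene-level signals, which do not show exon use. The signal of an array summed to 10651755 to 12509077 in controls and 9098056 to 10440265 after the hairpin. The number of arrays limits the precision. PTB protein was reduced by about 80% on western blots, per the labels, and Ptbp1 signal was 3387, 4203 and 4404 with empty vector against 1307, 1040 and 1957 with PTB shRNA (log2 difference -1.51 ± 0.25 SE, limma adjusted p = 0.0402). Of 10 measured neuroblastoma or neuronal markers 6 exceeded a signal of 200 on every array, while Nefl and Nefm, the neurofilament genes, did not exceed 32 on any. Th did not exceed 62. Gata3, also of this list, rose from 144, 210 and 170 to 337, 326 and 321 (log2 difference 0.87, adjusted p = 0.0384). None of 20 measured fibroblast, astrocyte, leukocyte and epithelial markers reached 200 throughout. The fibroblast list summed to between 229 and 284 with empty vector and between 300 and 471 with PTB shRNA, the astrocyte list to 58 to 69 and 46 to 82, the leukocyte list to 59 to 72 and 61 to 77, and the epithelial list to 134 to 188 and 167 to 201. The fibroblast genes were dim, and their median log2 difference was 0.28, beside 0.22 for the brightness deciles they lie in. After quantile normalization of the arrays it was 0.07. Gfap and Aldh1l1 (astrocyte), Cd3e (leukocyte) and Epcam (epithelial) were at or below 0 on at least 1 array, and no fibroblast marker was. Pdgfra, a receptor gene of the fibroblast list, rose from 43, 33 and 32 to 123, 103 and 80 (log2 difference 1.17, adjusted p = 0.0342, and 0.0254 after quantile normalization). The part of such cells in the synthetase results was not tested.

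The question here was whether the RNAs of the tRNA-charging enzymes differed in level, and whether the cytosolic and mitochondrial sets differed alike between PTB shRNA and empty vector. Among the 32 genes, Qars and Kars fell and none rose in limma's test over all clusters (Benjamini-Hochberg adjusted p under 0.05). That is 6.25% of the genes, against 3.37% of all clusters called lower and 1.36% called higher, and against 5.75% and 5.4% called lower in the brightness deciles that hold Qars and Kars, so the share was close to that of clusters of like signal. Differences were negative for 25 genes and positive for 7, from -0.95 for Qars to 0.22 for Hars2, with a median of -0.23 beside 0 over all clusters. For 14 of the 32 every PTB shRNA array lay below every empty vector array, and for none did every array lie above. Over all clusters the groups were separated downward in 19% and upward in 10.2%, and in the brightest decile in 39.5% and 2.56%. These are log2 differences of signal + 16, PTB shRNA minus empty vector. In bulk RNA, fewer cells of a kind and less RNA per cell cannot be told apart.

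**Figure D1:**
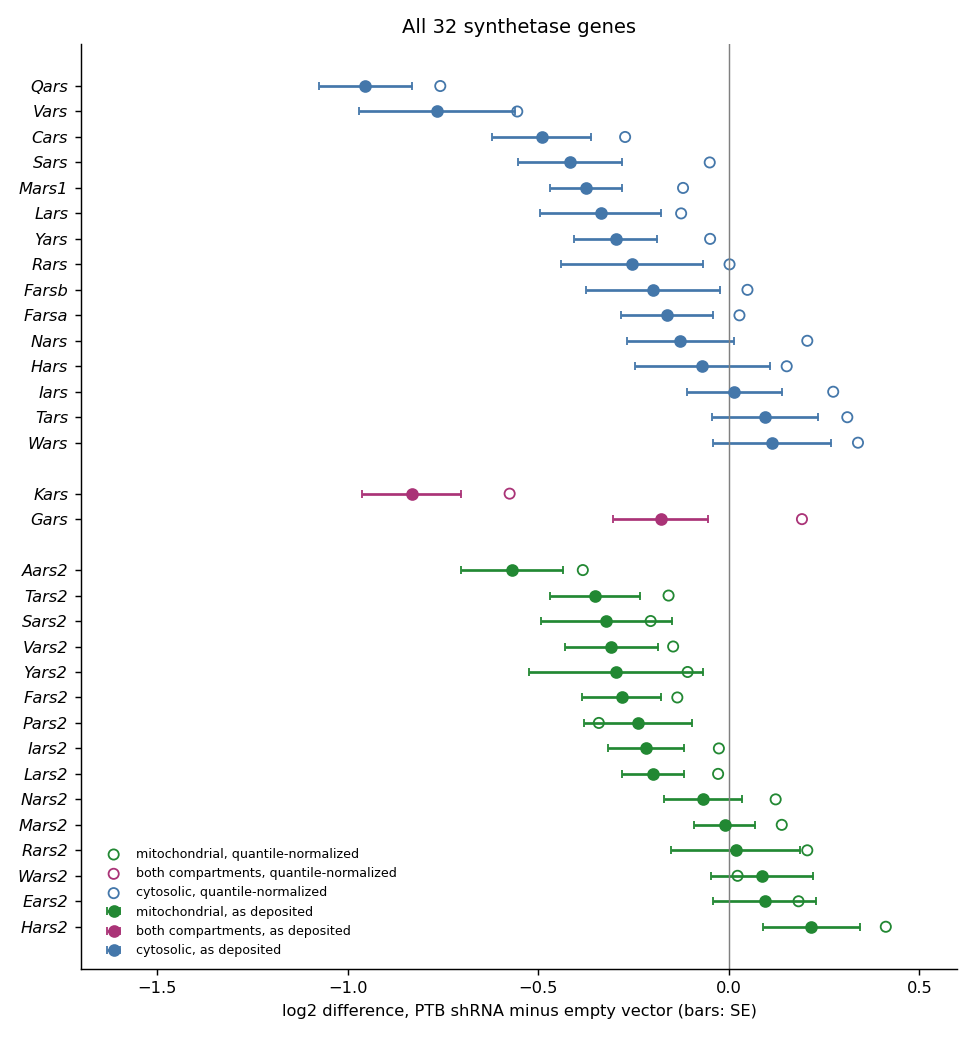
Log2 difference of each of the 32 synthetase genes, PTB shRNA minus empty vector, by compartment. Filled points are values as deposited with their standard error, and open points are values after quantile normalization. Qars (-0.95) and Kars (-0.83) lie farthest to the left with Vars (-0.77), and most open points sit to the right of their filled partners.

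Qars encodes glutaminyl-tRNA synthetase, which charges cytosolic tRNAs with glutamine and sits in the multisynthetase complex. Control arrays gave signals of 2010, 2058 and 1925, and PTB shRNA arrays gave 1192, 902 and 996. The groups were far apart, and the PTB shRNA mean was 51.6% of the empty vector mean. The log2 difference was -0.95 ± 0.12 (SE, n = 3 arrays per group; limma adjusted p = 0.032). Kars encodes lysyl-tRNA synthetase, made in a cytosolic and a mitochondrial form from the same gene, and its signal was 3798, 3893 and 4231 against 2270, 1899 and 2546. Again no array of either group entered the range of the other, and the mean stood at 56.3% of its empty vector level (-0.83 ± 0.13, adjusted p = 0.0367). After quantile normalization both genes remained lower, at -0.76 (adjusted p = 0.0378) and -0.58 (0.0394). With any 1 array left out neither passed, at adjusted p from 0.0571 to 0.119 for Qars and from 0.0537 to 0.123 for Kars, as no cluster on the array did. A pseudocount of 1 in place of 16 ended the call for Kars (adjusted p = 0.0557) and kept it for Qars (0.0483). With the replicate number as a block in limma neither gene passed, each at an adjusted p of 0.084.

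**Figure D2:**
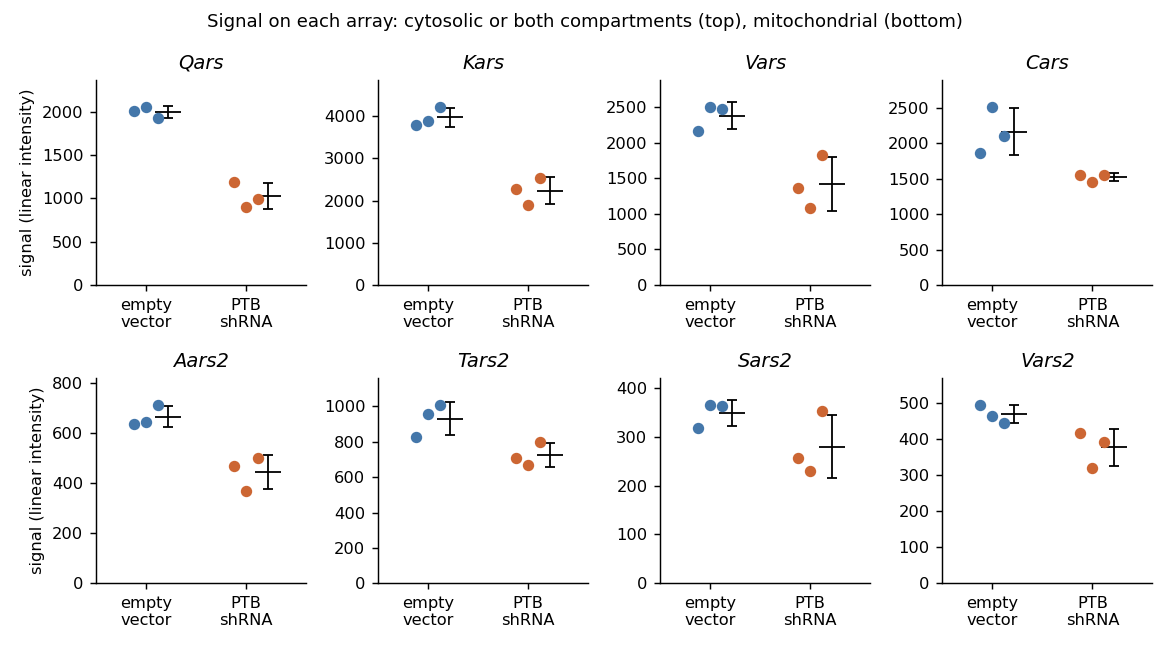
Linear signal on each array for the 4 cytosolic or both-compartment genes (top) and the 4 mitochondrial genes (bottom) with the largest absolute log2 difference. Points are arrays and black marks are group means ± SD of 3 arrays. The groups are separated in every panel except that of Sars2, where a PTB shRNA array reaches 352.

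The bases before the start sites of Qars and Kars are shown because these are the called genes, beside those of Gars and Tars, chosen after their values were seen because they hold a motif. They are RefSeq promoters of GRCm38.p6, the 250 bases before the start, 5′ to 3′. Capitals mark matches to TGATGNAA, the core of the element bound by ATF4 with C/EBP partners. Of the 32 genes 23 matched the promoter table. Vars, Cars, Lars, Rars, Pars2, Nars, Hars, Wars and Hars2 did not, so they were not searched. Of these, Cars, Lars, Nars and Wars are described as ATF4 targets in other cells.
Qars, chr9:108507755-108508004, plus strand: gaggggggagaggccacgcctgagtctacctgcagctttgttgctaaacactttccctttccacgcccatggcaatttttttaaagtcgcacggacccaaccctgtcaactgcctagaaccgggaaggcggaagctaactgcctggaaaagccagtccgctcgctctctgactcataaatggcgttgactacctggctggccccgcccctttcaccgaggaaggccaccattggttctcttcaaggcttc
Kars, chr8:112011355-112011604, minus strand: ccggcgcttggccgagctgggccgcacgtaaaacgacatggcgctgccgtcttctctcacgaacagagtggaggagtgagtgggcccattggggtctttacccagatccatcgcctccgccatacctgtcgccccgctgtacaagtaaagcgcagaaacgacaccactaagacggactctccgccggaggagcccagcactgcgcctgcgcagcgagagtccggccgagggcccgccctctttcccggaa
Gars, chr6:55037751-55038000, plus strand: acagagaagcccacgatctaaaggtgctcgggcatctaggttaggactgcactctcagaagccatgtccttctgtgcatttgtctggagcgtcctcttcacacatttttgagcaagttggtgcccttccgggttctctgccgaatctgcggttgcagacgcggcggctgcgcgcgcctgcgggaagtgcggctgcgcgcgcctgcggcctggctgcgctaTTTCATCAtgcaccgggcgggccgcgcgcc
Tars, chr15:11399659-11399908, minus strand: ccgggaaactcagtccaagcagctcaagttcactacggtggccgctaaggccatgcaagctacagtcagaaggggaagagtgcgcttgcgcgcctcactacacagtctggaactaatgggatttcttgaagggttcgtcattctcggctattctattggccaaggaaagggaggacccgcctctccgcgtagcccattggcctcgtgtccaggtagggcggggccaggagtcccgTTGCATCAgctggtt
TGATGNAA, searched on both strands, was present before Gars and Tars, 2 of 23 genes, and in 3.91% of all 27025 genes of the table (3.45% of its 32851 windows). The copies in Gars and Tars read on the minus strand of the gene and begin 30 and 15 bases before the start. CACGTG, the E-box bound by MYC and related factors, which reads alike on both strands, was present before Farsb and Iars, again 2 of 23, and in 6.86% of all genes (6.02% of windows). No window of these genes held both motifs. Neither motif was found in the windows of Qars and Kars.

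Among the other cytosolic genes, Vars and Cars differed most, and neither passed. Vars, for valine, measured 2164, 2510 and 2472 in controls and 1364, 1078 and 1832 with PTB shRNA. The groups were separated, but the PTB shRNA arrays spread widely (log2 difference -0.77 ± 0.21 SE, adjusted p = 0.0921). Cars, for cysteine, measured 1860, 2514 and 2096 against 1550, 1452 and 1556, also without overlap (-0.49 ± 0.13, adjusted p = 0.0891). Leaving out the dimmest 30% of clusters brought Vars to an adjusted p of 0.0269 and left Cars at 0.0518. Moderated variances with trend and robust settings brought Vars to 0.0211 and Cars to 0.0419. After quantile normalization both differences were smaller, at -0.555 for Vars (adjusted p = 0.128) and -0.272 for Cars (0.212). With a pseudocount of 1 the adjusted p was 0.121 and 0.116.

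Sars, for serine, was the brightest synthetase gene, at 6631, 7675 and 7984 against 6458, 4976 and 5313 (-0.42, adjusted p = 0.134). Its dimmer cluster gave -0.43, with nearly the same signal on each array (6529, 7612 and 7903 against 6347, 4813 and 5248). It is therefore not read as a separate measurement. Mars1 (-0.38), Lars (-0.34) and Yars (-0.30), for methionine, leucine and tyrosine, did not pass either, with adjusted p of 0.0831, 0.259 and 0.166. Quantile normalization made these differences smaller, at -0.05 for Sars, -0.12 for Mars1, -0.125 for Lars and -0.049 for Yars. Rars, for arginine, stood at -0.25, and Farsb and Farsa, the subunits of the phenylalanine enzyme, at -0.20 and -0.16. Nars (-0.13) and Hars (-0.07), for asparagine and histidine, lay near 0. The positive values among cytosolic genes belonged to Iars (0.02), Tars (0.10) and Wars (0.11), for isoleucine, threonine and tryptophan. Gars, the glycine enzyme of both compartments, measured 5737, 6880 and 6883 against 6233, 5088 and 5902, so that its groups overlapped (-0.18 ± 0.13, adjusted p = 0.433). After quantile normalization the sign turned for Rars (0.002), Farsb (0.049), Farsa (0.028), Nars (0.206), Hars (0.152) and Gars (0.192), none of them past the threshold.

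Both called genes belong to the multisynthetase complex. Of its 6 measured enzymes 2 fell, 5 of 6 differences were negative, and the median was -0.36 (-0.12 after quantile normalization). For Qars, Kars, Mars1 and Lars the groups did not overlap, whereas Iars measured 2548, 3366 and 3163 against 3138, 2963 and 3014, with PTB shRNA inside the empty vector range. Over all clusters 3.37% were called lower and 19% were separated downward. The brightest decile holds these enzymes except Qars. There 5.4% of clusters were called lower, 39.5% were separated downward, and the median difference was -0.25. The 11 cytosolic or both-compartment genes outside the complex had a median of -0.18 and no call, and after quantile normalization a median of 0.05 with 4 negative and 7 positive. A test between these sets was not made, and the complex was picked with results of these data known.

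The scaffold genes of the complex were all on the negative side and none passed on the values as deposited. Aimp2, whose product holds the lysine enzyme in the complex, measured 1312, 1375 and 1587 in controls and 928, 722 and 995 with PTB shRNA. Its groups were separated, and the PTB shRNA mean was 61.9% of the empty vector mean (log2 difference -0.69 ± 0.15 SE, adjusted p = 0.0658, and 0.0566 after quantile normalization). Aimp1, whose product binds the arginine and glutamine enzymes, measured 1390, 1654 and 1622 against 1071, 969 and 1114. It too showed no overlap, at 67.6% of the empty vector mean (-0.56 ± 0.11, adjusted p = 0.0519), and passed after quantile normalization (adjusted p = 0.0474). Without the dimmest 30% of clusters Aimp2 and Aimp1 were called lower (adjusted p = 0.0209 and 0.026), as they were with trend and robust variances (0.0141 and 0.0172), array weights (0.043 and 0.0317) and a pseudocount of 50 (0.0494 and 0.0357). Clusters called lower over the whole array rose too, from 580 as deposited to 1386, 1502, 1180 and 930 in that order. These calls are therefore not read as a result about the scaffold genes. Median centring also brought a call for Aimp2 (0.0478) but not for Aimp1 (0.0526). Neither gene was called with a pseudocount of 1, at adjusted p of 0.0912 for Aimp2 and 0.0729 for Aimp1. A limma fit blocked by replicate gave 0.0948 and 0.104, again without a call. Omitting any 1 array gave no call either, at 0.0767 to 0.165 for Aimp2 and 0.0779 to 0.156 for Aimp1. Eef1e1, which encodes AIMP3 and was named after its values were seen, measured 1913, 2271 and 3030 against 2127, 2050 and 2333, with overlapping groups (-0.12, adjusted p = 0.72).

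**Figure D3:**
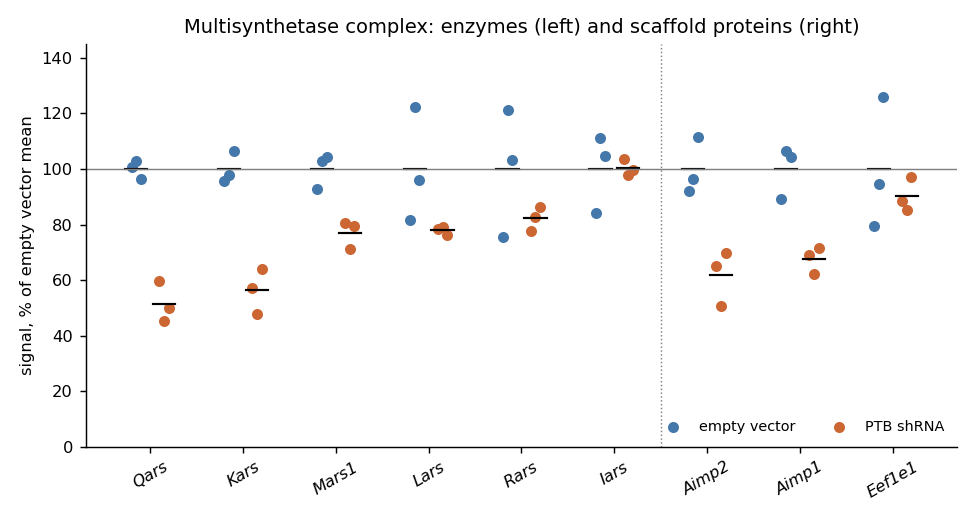
Signal of the multisynthetase complex genes on each array as a percentage of the gene's own empty vector mean, with enzymes left and scaffold genes right of the dotted line. Points are arrays and short lines are group means. Means with PTB shRNA run from 51.6% for Qars and 56.3% for Kars to 100.4% for Iars among the enzymes, and from 61.9% for Aimp2 to 90.2% for Eef1e1 among the scaffold genes.

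None of the 15 mitochondrial synthetase genes passed limma's test over all clusters, and no other setting gave a call except for Aars2. An unadjusted p under 0.05 was found for 4 of the 15, a like share to the 4377 of all 17213 clusters. Aars2, which charges mitochondrial tRNA with alanine, measured 638, 646 and 713 in controls and 469, 370 and 500 with PTB shRNA. The groups were separated, with a mean at 67.1% of its empty vector level (log2 difference -0.57 ± 0.13 SE, adjusted p = 0.074). Its adjusted p was 0.0332 without the dimmest 30% of clusters, 0.0256 with trend and robust settings, 0.0484 with array weights and 0.0857 after quantile normalization. Tars2, the threonine enzyme, measured 825, 955 and 1008 against 709, 668 and 797, without overlap (-0.35, adjusted p = 0.139). Vars2, for valine, measured 496, 466 and 447 against 419, 321 and 394, again without overlap (-0.31, adjusted p = 0.19). Sars2, for serine, measured 317, 365 and 363 against 257, 229 and 352, and PTB shRNA array 3 lay among the controls (-0.32, adjusted p = 0.311).

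Further mitochondrial genes with negative values were Yars2 (-0.30), Fars2 (-0.28), Pars2 (-0.24), Iars2 (-0.22) and Lars2 (-0.20). Nars2 (-0.07), Mars2 (-0.01), Rars2 (0.02), Wars2 (0.09) and Ears2 (0.09) lay near 0, and their groups overlapped. Hars2, for histidine, had the highest value of all 32 genes. It measured 519, 627 and 666 against 744, 725 and 638, so that the lowest PTB shRNA array fell inside the empty vector range (0.22 ± 0.13 SE, adjusted p = 0.348). Pars2 and Wars2 were the dimmest members, with signals between 96 and 154, where the added 16 weighs most on the log scale.

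The compartments differed little in their medians. The cytosolic genes had a median log2 difference of -0.25, with 12 of 15 negative, and the mitochondrial genes of -0.22, with 11 of 15 negative. The gap between the medians was -0.035, less than the SD between arrays of the same group (0.128). Centred on each gene's control mean, the cytosolic median per array was -0.20, 0.16 and 0.06 in controls against -0.23, -0.29 and -0.26 with PTB shRNA. The mitochondrial median was -0.08, 0.04 and 0.06 against -0.13, -0.34 and -0.05. Thus empty vector array 1 lay close to the PTB shRNA arrays for cytosolic genes, and PTB shRNA array 3 close to the controls for mitochondrial genes. Without empty vector array 1 the cytosolic median was -0.39 and the gap -0.178.

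Brightness moved with these differences. Of the 15 cytosolic genes 13 lay in the brightest decile of all clusters, together with Gars and Kars, and none of the mitochondrial genes did. The median difference of all 1722 clusters in that decile was -0.25, close to the cytosolic median. The mitochondrial genes lay in the fifth to the ninth decile, whose medians ran from 0.08 to -0.19. After quantile normalization the cytosolic median was 0.002, with 7 genes negative and 8 positive. The mitochondrial median was then -0.028, with 9 negative and 6 positive. Qars and Kars lay well below the median of their own deciles, -0.17 and -0.25.

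**Figure D4:**
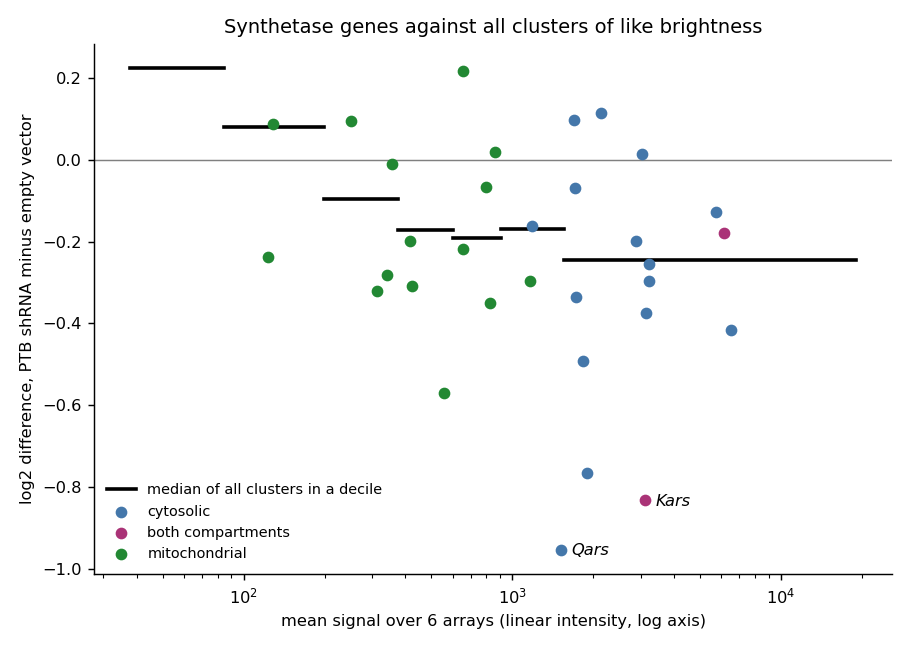
Log2 difference of each synthetase gene against its mean signal over the 6 arrays (log axis). Black lines give the median of all clusters in each brightness decile, from the fourth decile up, and span that decile. Medians pass from 0.22 in the fourth decile to -0.25 in the brightest, where most cytosolic genes lie around the line and Qars and Kars below it.

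For 11 amino acids a cytosolic and a mitochondrial gene were both measured, and the log2 ratio of their signals was followed across arrays. Only its change between the groups is read here, since signals of different clusters are not on a common scale. The ratio was lower with PTB shRNA for 8 amino acids and higher for 3, with a median change of -0.09 that became 0.06 after quantile normalization. With 3 arrays against 3 the smallest two-sided exact permutation p is 0.1, and after adjustment over the 11 amino acids the lowest was 0.275, so none passed. The directions were not shared by all amino acids.

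The threonine ratio, Tars over Tars2, had the largest upward change. Relative to its empty vector mean it was -0.09, 0.19 and -0.11 in controls and 0.51, 0.59 and 0.25 with PTB shRNA. All of the latter were above the controls, by 0.45 ± 0.14 on average (SE; 0.47 after quantile normalization). Signals of Tars overlapped between the groups, at 1366, 1916 and 1642 against 1778, 1773 and 1669 (0.10 ± 0.14, adjusted p = 0.714), while those of Tars2 did not. The isoleucine ratio, Iars over Iars2, was also higher, by 0.23 ± 0.11, although PTB shRNA array 3 (0.096) barely exceeded empty vector array 3 (0.092).

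The methionine ratio, Mars1 over Mars2, was the steadiest of those that were lower. It was -0.05, 0.03 and 0.02 in controls and -0.35, -0.40 and -0.34 with PTB shRNA. The arrays of each group lay close together, and the change was -0.36 ± 0.03 (SE; -0.26 after quantile normalization). Mars2 itself measured 344, 361 and 368 against 369, 335 and 361, so the change of the ratio came with Mars1, at 3306, 3669 and 3709 against 2868, 2533 and 2829. The arginine ratio was lower by a mean of -0.27 ± 0.10 with separated groups. The valine (-0.46) and histidine (-0.29) ratios were lower on average, but their groups overlapped through PTB shRNA array 3. For leucine, serine, asparagine, tyrosine and tryptophan the changes lay between -0.14 and 0.03, each with overlapping groups.

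**Figure D5:**
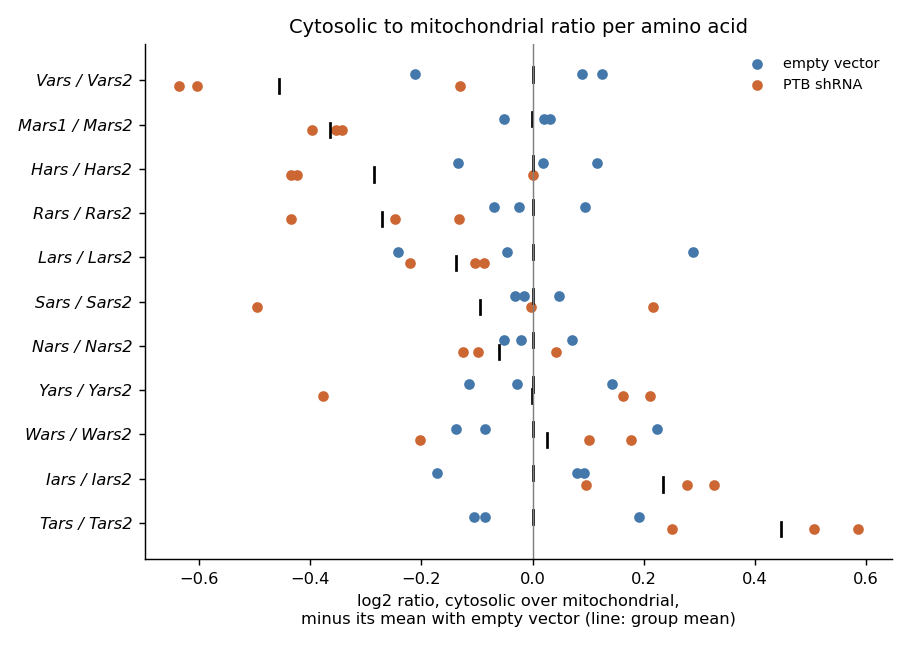
Log2 ratio of the cytosolic over the mitochondrial gene for 11 amino acids, minus its mean with empty vector. Points are arrays and vertical lines are group means. The Tars / Tars2 ratio is highest with PTB shRNA (mean 0.45) and Mars1 / Mars2 shows the tightest arrays (mean -0.36).

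The members also varied among control arrays. Empty vector array 1 was the lowest of the 3 controls for 28 of the 32 genes, beside 42.1% of all clusters and 78% of the brightest decile. Empty vector array 2 was the highest control for 11 of the 15 cytosolic and 6 of the 15 mitochondrial genes, beside 31.4% of all clusters and 21.1% of the brightest decile. The spread was wide for Rars, at 2666, 4293 and 3655, and for Wars, at 1702, 2508 and 1975, while their PTB shRNA arrays lay between 2749 and 3057 and between 2155 and 2257. Qars was among the steadiest controls, with an SD of 67.4 around a mean of 1998.

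The 10 measured cytosolic or both-compartment genes described as ATF4 targets in other cells (Cars, Gars, Iars, Lars, Mars1, Nars, Sars, Tars, Wars and Yars) had a median of -0.24 and no call. The 7 others, which include Qars and Kars, had a median of -0.25 and 2 calls. After quantile normalization these medians were 0.07, with 5 genes negative and 5 positive, and 0.002. Class I enzymes (17 genes) and class II enzymes (15 genes), which fold and bind ATP differently, had medians of -0.25 and -0.20 with 1 call each, and of -0.03 and 0.03 after quantile normalization. The calls in both splits are the same 2 genes, Qars and Kars. Over all clusters 3.37% were called lower, as were 5.75% and 5.4% in the deciles that hold Qars and Kars. A test between the sets of either split was not made.

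Genes that work beside the synthetases did not pass either on the values as deposited. Of 8 measured relatives and charging partners, 5 were negative, with a median of -0.11, against 3 negative and a median of 0.06 after quantile normalization. Dtd1, which removes D-amino acids from tRNA, measured 1043, 1153 and 1155 against 831, 618 and 684, without overlap (log2 difference -0.65, adjusted p = 0.0563). Ankrd16, which in mouse assists the alanine enzyme against mischarging, measured 211, 230 and 287 against 301, 346 and 306 (0.38, adjusted p = 0.161). Of 4 measured mitochondrial partners, Gatb and Gatc encode subunits of the amidotransferase that makes glutaminyl-tRNA in mitochondria, where no glutamine enzyme is used. Gatb measured 313, 369 and 355 against 235, 232 and 256 (-0.49, adjusted p = 0.0533), and Gatc 665, 831 and 764 against 572, 561 and 610 (-0.36, adjusted p = 0.112). Both pairs of groups were separated, and neither gene passed on the values as deposited. Without the dimmest 30% of clusters Dtd1 (adjusted p = 0.0202) and Gatb (0.0357) were called lower, and after quantile normalization they were not (0.0658 and 0.0678).

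Among 21 measured genes of the amino acid stress response, none was called, 14 were negative, and the median was -0.17 (0.10 after quantile normalization). Shmt2, the mitochondrial enzyme of serine and glycine metabolism, stood at 64.2% of its empty vector mean (log2 difference -0.64, adjusted p = 0.0679). Its adjusted p was 0.0243 without the dimmest 30% of clusters and 0.0839 after quantile normalization. Sesn2, an inhibitor of mTORC1 signalling that senses leucine, stood at 151% (0.62, adjusted p = 0.157). Atf4 itself, named after its values were seen, measured 6190, 7846 and 7923 against 6604, 5323 and 6241, with overlapping groups. Of 23 measured amino acid transporter genes 12 were negative, 10 positive and 1 at 0, with a median of -0.02 (0.14 after quantile normalization) and no call. Slc7a8, a carrier of neutral amino acids, measured 29, 32 and 22 against 72, 59 and 43 (0.75, adjusted p = 0.075, and 0.0216 without the dimmest 30%), and Slc38a3, a glutamine carrier, 43, 57 and 44 against 110, 86 and 67 (0.68, adjusted p = 0.0917 and 0.0313). Both transporters were dim, so their log2 differences depend on the added 16. After quantile normalization neither passed (adjusted p = 0.0639 for Slc7a8 and 0.107 for Slc38a3).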

How the data were processed

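Total RNA from 3 empty vector and 3 PTB shRNA samples was put on Affymetrix mouse exon 1.0 ST arrays after removal of ribosomal RNA, with 1 µg as input, per the labels' protocols. The authors deposited gene-level intensity values per transcript cluster, whole numbers from -616 to 23431. Per the submitters' processing notes GCOS 1.3 was used. The sources used here do not state how probes were summarised, background subtracted or arrays scaled. Some background was subtracted, since values below 0 occur, and brightness-dependent differences between arrays remain in the values.

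Clusters were named through the platform annotation: of 17213, 15146 had 1 symbol, 1278 several and 789 none. Negative values were set to 0 and log2(signal + 16) was fitted with limma 3.58.1 (R 4.3.3; lmFit, eBayes) on all 6 arrays without a block. The Benjamini-Hochberg adjustment ran over every cluster, with calls at 0.05. Ratios per amino acid were compared by exact two-sided permutation over arrays. Figures used Python 3.11.15 and matplotlib 3.10.9. Tested on simulated data of 17213 clusters, of which 200 brighter ones were changed, the fit recovered 72% of changes of 1 log2 unit, with 6 false calls. The simulated noise was independent for each cluster and held no brightness-dependent shift between arrays. These figures therefore do not measure recovery or false calls in the real arrays.

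The members, gene lists and subgroups were chosen with earlier results of these data known. Every member is named. Values on every array were fixed for called members and the 4 largest differences per compartment, and from each further list the 2 largest differences were named where none passed. Other array values were added after being seen. Alternatives were quantile normalization, median centring, a pseudocount of 1 or 50, filters on the dimmest 30% or 50%, trend and robust variances, array weights, a replicate block, the mean of a gene's rows, Gars and Kars counted as cytosolic, and leaving out each array.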

Additional observations from a re-analysis of the deposited data

How the results depend on the processing

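The count of synthetase genes called lower was 2 as deposited, after quantile normalization, with median centring, with a pseudocount of 50 and with the mean of a gene's clusters, each time Kars and Qars. It was 1 with a pseudocount of 1 (Qars), 3 with array weights (Aars2 added) and 5 with trend and robust variances. Without the dimmest 30% of clusters it was 4, and without the dimmest 50%, which left 30 members, it was 7. Clusters called lower over the whole array rose alongside. They went from 580 as deposited to 1180 with array weights, 1502 with trend and robust variances, and 1386 and 2100 with the filters. The larger member counts are therefore not read as a result about the synthetases. Calls that these settings gave to Aimp1, Aimp2, Dtd1, Gatb, Shmt2, Slc7a8 and Slc38a3 are read with the same caution. With any 1 array left out no member was called, and 6 to 12 of the 32 members had an unadjusted p under 0.05. In the same fits 3292 to 4555 of all 17213 clusters did. Quantile normalization moved the cytosolic median to 0.002, the mitochondrial median to -0.028 and the median ratio change, an alternative chosen after seeing the data, to 0.059. With any 1 array left out the cytosolic median ran from -0.391 to -0.182, the gap between compartments from -0.178 to 0.003, the mitochondrial median from -0.235 to -0.154 and the ratio change from -0.139 to -0.041. Counting Gars and Kars as cytosolic moved neither the cytosolic median nor the gap beyond the spread between arrays. Over all clusters 814 were called, 580 lower and 234 higher (71.3% lower), against 997 (49.2% lower) after quantile normalization. The count was 216 with a pseudocount of 1 (61.1% lower), 1252 with 50, 1885 and 2486 (84.5% lower) without the dimmest 30% and 50%, 1965 with trend and robust variances, 1625 with array weights and 0 with any 1 array left out. Ptbp1 did not pass with a pseudocount of 1 (-1.519, adjusted p = 0.0605) or with any 1 array left out (-1.755 to -1.304). The cause of these shifts was not tested.

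With the replicate number as a block, 0 clusters and 0 synthetase genes were called in limma, with 4671 clusters and 8 members at an unadjusted p under 0.05, and Ptbp1 stood at -1.508. Qars, Kars and Ptbp1 each had an adjusted p of 0.084 there. Deviations of same-numbered arrays correlated at 0.232, 0.0547 and 0.258, so the numbers were not taken to pair the arrays, although each array correlated best with its own number.

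After quantile normalization the sign turned for Farsa (0.028), Farsb (0.049), Gars (0.192), Hars (0.152), Mars2 (0.139), Nars (0.206), Nars2 (0.123) and Rars (0.002), with median centring for Mars2 (0.013) and with array weights for Iars (-0.04) and Rars2 (-0.044). With an array left out, values ran from -0.103 to 0.097 for Iars, -0.16 to 0.123 for Rars2, -0.028 to 0.214 for Tars, -0.015 to 0.262 for Wars, -0.239 to 0.062 for Hars, -0.038 to 0.028 for Mars2, -0.016 to 0.21 for Ears2 and -0.012 to 0.165 for Wars2. None of these passed the test under any of these settings.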

Other observations

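Some genes of the amino acid stress response varied more among the empty vector arrays than between the groups, and they were picked out after their values were seen. Trib3, a pseudokinase gene induced by ATF4, measured 1890, 3036 and 1190 in controls and 1762, 1566 and 1485 with PTB shRNA. Chac1, which encodes a glutathione-degrading enzyme, measured 1469, 2009 and 858 against 1112, 955 and 987. Slc7a11, the cystine carrier gene, measured 813, 1771 and 679 against 1218, 1260 and 926. In all of these, empty vector array 2 was the highest of the 6 arrays and empty vector array 3 the lowest. Empty vector array 2 was also the highest control for Wars, Lars and Tars, but there array 1 was the lowest control. The PTB shRNA arrays lay close together for each of Trib3, Chac1 and Wars, with SDs of 142, 83 and 51.4 against 932, 576 and 410 with empty vector.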
